A study of Mus musculus with 6 samples.

Results

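The expression of 36 genes of the cell division cycle was compared between colonic mucosa of Tlr2 knockout and wild-type mice. The genes were taken by name, 15 of them for DNA replication in S phase and 21 for mitosis, and their probes were found by gene symbol or transcript accession. All 36 were measured, among 14702 named genes tested of the 17318 named on the arrays. The mice were of the C57BL/6 strain and aged 90 postnatal days, with Toll-like receptor 2 (Tlr2) deleted in one group and no allele or agent named for the other. The mucosa was sheared from the colon wall with a glass slide, so that it holds crypt epithelium together with immune and stromal cells. RNA of each knockout sample was hybridised with that of 1 wild-type sample on 1 of 4 Agilent arrays, here called pairs 1, 2, 4 and 5 after the knockout sample's number. The knockout was in the Cy3 dye on pairs 1 and 2 and in Cy5 on pairs 4 and 5, and all ratios below are given as knockout divided by wild type. The labels do not say whether a sample was 1 mouse or a pool, so p-values measure the spread between these samples.

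Cells enter S phase when cyclin E with its kinase partner and E2F transcription factors switch on the genes that copy DNA. Cdc6 and Cdt1 load the Mcm helicase on replication origins, the clamp Pcna holds the polymerases on the template, and ribonucleotide reductase, thymidylate synthase and thymidine kinase supply nucleotides. In G2 and mitosis, cyclin B with Cdk1, the Polo and Aurora kinases and the spindle checkpoint drive chromosome segregation, and Cdc20 and Ube2c act with the anaphase-promoting complex to end it. In the colon, dividing cells sit mainly in the lower part of the crypt, with lymphocytes of the mucosa as a further source of the same transcripts. Fewer dividing cells and less RNA per dividing cell cannot be told apart in such bulk tissue.

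No member passed the test in either direction. In the limma fit, 0 of the 36 members had an adjusted p under 0.05, beside 0 of the 14702 genes tested (0% called), and the members' adjusted p ran from 0.593 to 0.999. The deleted gene Tlr2 also went uncalled (mean log2 ratio -4.86, limma adjusted p 0.314). The lack of calls therefore says little about the members. At an unadjusted p under 0.05 it gave 5 members lower and 2 higher, all of them S phase genes, beside 4.26% and 3.86% of all genes. The submitters' own rule, more than 1.6-fold on at least 2 arrays with no array contradicting, took 0 members, beside 1.48% of all genes (0.762% higher and 0.715% lower). Within that limit the ratios of a few genes had the same sign on all 4 arrays. Over all genes 8.43% were lower and 7.19% higher on all 4. The loading, helicase and clamp genes Pcna, Mcm2, Mcm5 and Cdt1 were measured 1.19- to 1.34-fold lower in the knockout on average, and on all 4 arrays. By their brightest probes both cyclin E genes, Ccne1 and Ccne2, were higher on all 4 arrays, by 1.30- and 1.28-fold on average. The mitotic genes had a median near 0, and 19 of the 21 differed in sign between arrays. The other 2 were higher on all 4 arrays and 0 were lower, beside the shares over all genes given above.

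**Figure D1:**
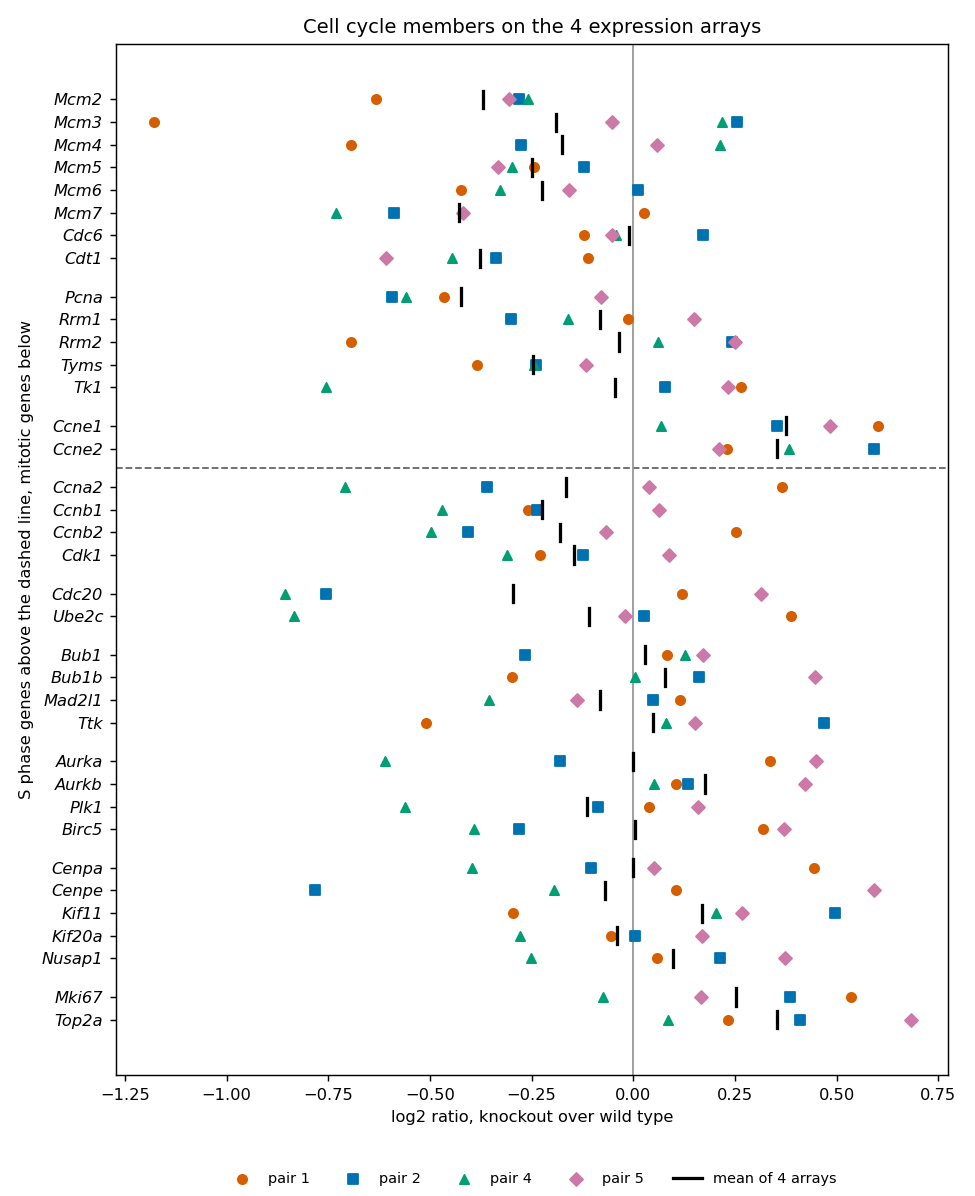
Log2 ratio, knockout over wild type, of each of the 36 genes on the 4 arrays (points, 1 per pair) with the mean over the arrays, for the 15 S phase and the 21 mitotic genes. Of the S phase genes 5 have all 4 points below 0 and 2 have all 4 above (8.43% and 7.19% of all genes). Most mitotic genes have points on both sides of 0.

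The reference promoters of the 2 gene groups differ in the short motifs through which the cell cycle timing of such genes is known to be set, and the stretches are shown for this contrast. RefSeq windows from 250 bases before to 50 bases after the transcription start (build GRCm38.p6) matched 31 of the 36 members, giving 14 windows for S phase genes, of which Mcm7 has 2, and 18 for mitotic genes. An E2F motif was searched as TTTGGCGC, TTTCCCGC, TTTCGCGC or TTTGCCGC, the cell cycle homology region (CHR) as TTTGAA, and the CCAAT box as CCAAT, each on both strands. E2F letters were in 6 of 14 S phase windows (42.9%), 1 of 18 mitotic windows (5.56%) and 2.26% of all 32851 windows. CHR letters were in 1 of 14 S phase windows (7.14%), 12 of 18 mitotic windows (66.7%) and 17.9% of all windows. Each of these 12 mitotic windows also held CCAAT letters, a combination found in 6.95% of all windows. A match is a match of letters, and binding was not measured here.

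The 180 bases just before the start follow, 5′ to 3′ on the gene's own strand, with the letters of the motif named for each set in capitals. The first 4 are S phase genes with an E2F match, of which Mcm5 has 2 overlapping matches, and Mcm6 has 3 matches, the first pair of them overlapping.
Mcm5 (chr8:75109329-75109508, plus strand): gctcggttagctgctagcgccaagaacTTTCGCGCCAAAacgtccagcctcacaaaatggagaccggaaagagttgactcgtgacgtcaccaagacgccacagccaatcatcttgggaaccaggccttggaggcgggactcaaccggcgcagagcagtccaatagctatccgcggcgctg
Mcm6 (chr1:128359706-128359885, minus strand): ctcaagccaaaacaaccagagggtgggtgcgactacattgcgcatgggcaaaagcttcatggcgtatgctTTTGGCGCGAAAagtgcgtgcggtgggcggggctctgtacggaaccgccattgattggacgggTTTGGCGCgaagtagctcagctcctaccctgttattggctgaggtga
Mcm7 (chr5:138171884-138172063, minus strand): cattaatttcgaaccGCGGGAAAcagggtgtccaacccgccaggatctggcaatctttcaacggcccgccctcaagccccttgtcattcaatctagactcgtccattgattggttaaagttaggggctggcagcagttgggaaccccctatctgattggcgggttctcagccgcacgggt
Cdc6 (chr11:98907971-98908150, plus strand): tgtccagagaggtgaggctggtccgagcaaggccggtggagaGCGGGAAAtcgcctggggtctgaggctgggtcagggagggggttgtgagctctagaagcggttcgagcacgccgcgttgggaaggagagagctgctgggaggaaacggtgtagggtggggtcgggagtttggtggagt
The next 4 are mitotic genes with a CHR match. Cdk1 and Top2a have 2 matches each, and Cdk1 is also the mitotic gene with E2F letters, left in lower case.
Cdc20 (chr4:118437344-118437523, minus strand): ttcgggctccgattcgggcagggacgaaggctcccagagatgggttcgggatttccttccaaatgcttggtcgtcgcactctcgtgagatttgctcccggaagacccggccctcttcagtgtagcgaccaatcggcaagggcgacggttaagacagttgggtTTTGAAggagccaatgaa
Ube2c (chr2:164769749-164769928, plus strand): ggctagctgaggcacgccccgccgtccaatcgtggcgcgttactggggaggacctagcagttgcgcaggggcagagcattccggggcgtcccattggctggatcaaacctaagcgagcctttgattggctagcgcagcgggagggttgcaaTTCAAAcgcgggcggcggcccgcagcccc
Cdk1 (chr10:69352913-69353092, minus strand): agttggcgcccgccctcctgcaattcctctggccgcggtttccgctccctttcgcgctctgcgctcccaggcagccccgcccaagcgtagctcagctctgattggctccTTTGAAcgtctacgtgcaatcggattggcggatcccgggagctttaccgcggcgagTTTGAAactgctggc
Top2a (chr11:99024190-99024369, minus strand): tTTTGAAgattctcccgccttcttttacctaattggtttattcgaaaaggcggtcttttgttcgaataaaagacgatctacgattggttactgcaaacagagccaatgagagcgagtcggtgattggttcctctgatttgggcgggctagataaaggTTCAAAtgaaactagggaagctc

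Each array held 43379 spots, of which 67.7% to 71.9% were well above background in the knockout channel and 63.3% to 76.5% in the wild-type channel. The 36 members were read by 49 probes. By the probe used, every member was above background in both channels of all 4 arrays and saturated on none. The second probes of Cdk1 and Kif11 were above background on only 2 arrays in each group. Tlr2 itself had log2 ratios from -5.50 to -4.20, lower in the knockout on all 4 arrays, as the labels state. Pair 1 stood apart from the others. Over 14691 genes its ratios correlated negatively with those of pairs 2, 4 and 5 (r = -0.21, -0.42 and -0.10), while the other 3 correlated positively with each other (r from 0.42 to 0.57). The list values are therefore also given without pair 1. Of the 36 members, 4 had a mean of the other sign over pairs 2, 4 and 5 alone: Mcm3 (0.14), Rrm2 (0.18), Cdc6 (0.03) and Birc5 (-0.10).

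Among the 8 genes of origin loading and the helicase, all 8 mean log2 ratios were below 0, beside 52.4% of all genes. Without pair 1 the means of Mcm3 (0.14) and Cdc6 (0.03) were above 0. The group's median was -0.33, -0.20, -0.28 and -0.23 on pairs 1, 2, 4 and 5. Cdt1, which brings the helicase to the origin, had log2 ratios of -0.11, -0.34, -0.44 and -0.61. The knockout was lower on every array, with a mean of -0.38 ± 0.208 (SD, n = 4 arrays). Mcm2, a helicase subunit, had -0.63, -0.28, -0.26 and -0.31, a mean of -0.37 ± 0.177 (SD, n = 4 arrays). All arrays were lower in the knockout, with pair 1 the lowest and the other 3 close together. Mcm5 had -0.24, -0.12, -0.30 and -0.33, with the smallest spread of the helicase subunits (mean -0.25 ± 0.0930). Mcm7 was near 0 on pair 1 (0.03) and lower on the others (-0.59, -0.73 and -0.42), so its mean was -0.43 ± 0.329 with all 4 arrays and -0.58 over pairs 2, 4 and 5. The limma adjusted p of these 4 genes was 0.593 for Cdt1 and Mcm2 and 0.597 for Mcm5 and Mcm7.

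The remaining helicase subunits did not share one sign across arrays. Mcm3 had -1.18, 0.26, 0.22 and -0.05, so its mean of -0.19 ± 0.674 rested on pair 1. Mcm4 had -0.69, -0.28, 0.21 and 0.06, lower on both arrays with the knockout in Cy3 and higher on both with the knockout in Cy5 (mean -0.18 ± 0.402, and -0.0021 without pair 1). Mcm6 had -0.42, 0.01, -0.33 and -0.16, lower on 3 of 4 arrays. Cdc6, the loading factor, had a mean of -0.01 ± 0.126, with values from -0.12 to 0.17, and its other probe was lower on all 4 arrays (mean -0.10). The 6 subunits of the helicase, which act as 1 ring, thus had means from -0.43 to -0.18, with SDs from 0.0930 to 0.674. All were below 0, as were 52.4% of all genes, but without pair 1 the mean of Mcm3 was 0.14.

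The sliding clamp and the enzymes of nucleotide supply also had means below 0, in 5 of 5 genes (52.4% of all genes), with group medians of -0.39, -0.24, -0.24 and 0.15. Without pair 1 the mean of Rrm2 was above 0 (0.18). Pcna was read by 10 spots an array. Its log2 ratios were -0.47, -0.59, -0.56 and -0.08, a mean of -0.42 ± 0.236 (SD, n = 4 arrays), or 1.34-fold lower in the knockout. The knockout was clearly lower on 3 arrays and close to the wild type on pair 5, where single spots ran from -0.23 to 0.06 against -0.70 to -0.41 over the other 3. Spots of 1 array share its RNA, so they measure the array's own precision. Tyms, thymidylate synthase, had -0.39, -0.24, -0.24 and -0.12 (mean -0.25 ± 0.110), lower on every array, and its other probe had a mean of -0.22. The limma adjusted p was 0.593 for Pcna and 0.616 for Tyms.

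Rrm1 and Rrm2, the large and small subunits of ribonucleotide reductase, had means of -0.08 ± 0.193 and -0.03 ± 0.447. Rrm2 was lower on pair 1 (-0.69) and slightly higher on pairs 2, 4 and 5 (0.24, 0.06 and 0.25). Tk1, thymidine kinase, was lower on pair 4 alone (-0.76 against 0.27, 0.08 and 0.23) and had a mean of -0.04 ± 0.481. In these 3 genes the spread between arrays exceeded the mean.

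Cyclin E, which starts S phase, had ratios of the opposite sign to most of the genes that carry it out. Ccne1 had log2 ratios of 0.60, 0.35, 0.07 and 0.48, a mean of 0.38 ± 0.230 (SD, n = 4 arrays). Ccne2 had 0.23, 0.59, 0.38 and 0.21, a mean of 0.35 ± 0.177 (SD, n = 4 arrays). By these probes the knockout was higher on every array for both genes, by little on pair 4 for Ccne1. The limma adjusted p was 0.593 for each. The other probe of Ccne2 had a mean of 0.30, close to the first, whereas the other probe of Ccne1 had -0.05, 0.23, -0.01 and 0.17 (mean 0.08). Ccne2 is the 1 member in the authors' deposited table of increased transcripts, which has 328 rows, with ratios of 1.42, 1.93, 1.73 and 1.52 and an average of 1.65. The authors' deposited table of decreased transcripts, with 277 rows, lists 0 members. Started from the scanner's own processed signals, Ccne2 had a mean log2 ratio of 0.73 and was past the 1.6-fold rule. With those signals the rule took 290 genes higher and 270 lower over all genes, in place of 112 and 105.

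Of the mitotic genes, none was lower on all 4 arrays and 2 were higher on all 4, beside 8.43% and 7.19% of all genes. In 12 of 21 the mean was below 0, beside 52.4% of all genes. The B- and A-type cyclins and their kinase had group medians of 0.01, -0.30, -0.48 and 0.05. Ccnb1, cyclin B1, had -0.26, -0.24, -0.47 and 0.06 (mean -0.22 ± 0.220). It was lower on 3 of 4 arrays, but its 2 other probes had means of 0.0027 and -0.10. Ccnb2 had 0.25, -0.41, -0.50 and -0.07, and Ccna2 had 0.37, -0.36, -0.71 and 0.04. Cyclins B2 and A2 were thus highest on pair 1 and lowest on pair 4. Cdk1 had -0.23, -0.12, -0.31 and 0.09, with values close to those of Ccnb1.

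The 2 genes that act with the anaphase-promoting complex were also lowest on pair 4. Cdc20, its activator, had 0.12, -0.76, -0.86 and 0.31 (mean -0.29 ± 0.597, and -0.43 without pair 1), lower on pairs 2 and 4 and higher on pairs 1 and 5. Ube2c, its ubiquitin-conjugating enzyme, had 0.39, 0.03, -0.83 and -0.02 (mean -0.11 ± 0.516). The limma adjusted p was 0.673 for Ccnb1 and 0.801 for Cdc20.

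The mitotic kinases and survivin had group medians of 0.21, -0.13, -0.48 and 0.40. Aurka, the spindle-pole kinase, had 0.34, -0.18, -0.61 and 0.45, and survivin (Birc5) had 0.32, -0.28, -0.39 and 0.37. Both were higher on pairs 1 and 5 and lower on pairs 2 and 4, with means close to 0. Aurkb, the kinase that works in 1 complex with survivin, had 0.10, 0.13, 0.05 and 0.42 (mean 0.18 ± 0.166). It was higher on every array, by the most on pair 5 (limma adjusted p 0.694). Plk1, the Polo kinase, had 0.04, -0.09, -0.56 and 0.16, with pair 4 again the lowest.

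Mki67, the source of the Ki-67 antigen used to stain dividing cells, had 0.53, 0.39, -0.07 and 0.17 (mean 0.25 ± 0.265). It was higher on 3 of 4 arrays, and its other probe had a mean of 0.21. Top2a, the topoisomerase that untangles chromosomes, had 0.23, 0.41, 0.09 and 0.68 (mean 0.35 ± 0.256). The knockout was higher on every array by this probe, but the other probe of Top2a had a mean of 0.05. The limma adjusted p was 0.620 for both genes. These 2 genes are also active in S phase, and their means were of opposite sign to those of Pcna and the helicase.

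The spindle checkpoint genes Bub1, Bub1b, Ttk and Mad2l1 had means from -0.08 to 0.08. Ttk, a checkpoint kinase, was lower on pair 1 (-0.51) and higher on pairs 2, 4 and 5 (0.47, 0.08 and 0.15). Kif11, the motor that separates spindle poles, was likewise lower on pair 1 alone (-0.30, then 0.50, 0.20 and 0.27). Its other probe, above background on only 2 arrays in each group, had -0.13, -0.01, 0.05 and 0.11. The centromere proteins Cenpa and Cenpe, the motor Kif20a and the spindle protein Nusap1 had means from -0.07 to 0.10. Cenpe ranged from -0.78 on pair 2 to 0.59 on pair 5, and its 3 probes had means of -0.07, 0.02 and 0.18.

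**Figure D2:**
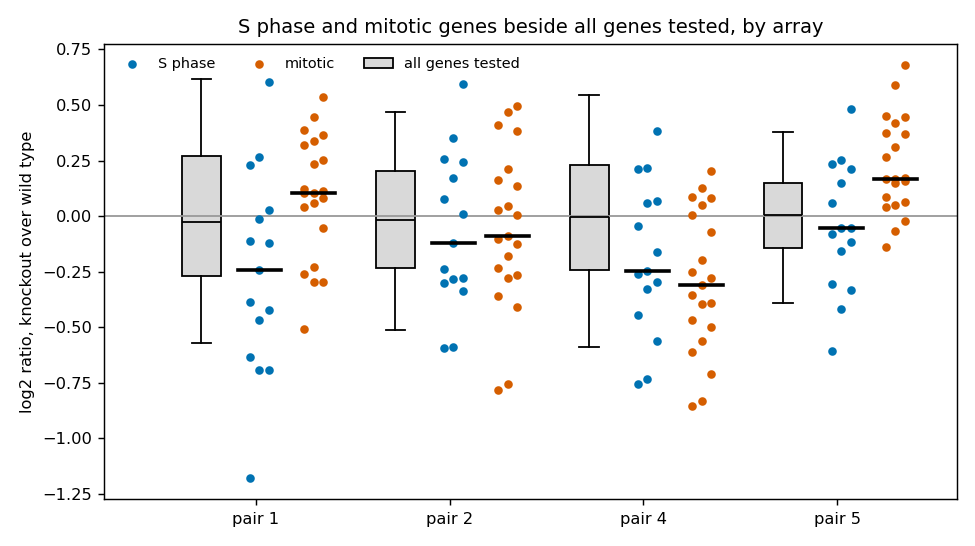
Log2 ratios, knockout over wild type, of the S phase and mitotic genes on each array (points, 1 per gene) with the median of each list. The S phase median was below 0 on all 4 arrays, between -0.24 and -0.05, and the mitotic median ran from -0.31 on pair 4 to 0.17 on pair 5.

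Set side by side, the S phase list lay lower than the mitotic list on 3 of 4 arrays. The S phase medians were -0.24, -0.12, -0.24 and -0.05 on pairs 1, 2, 4 and 5, and the mitotic medians were 0.11, -0.09, -0.31 and 0.17. Over all genes tested the medians lay between -0.03 and 0.0046. S phase minus mitotic was therefore -0.35, -0.03, 0.07 and -0.22, a mean of -0.13 ± 0.186 (SD, n = 4 arrays), and -0.06 without pair 1. The difference was smaller than its spread between arrays. The median over members of the mean log2 ratio was -0.19 for S phase and -0.0016 for mitosis. Without pair 1 these were -0.15 and -0.11, so most of the gap between the lists was gone without that array.

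Counts by sign show where the 2 lists part. Positive ratios were seen in 4, 7, 5 and 6 of the 15 S phase genes on pairs 1, 2, 4 and 5, and in 15, 10, 6 and 18 of the 21 mitotic genes. Over all genes the share was 47.2%, 47.6%, 49.8% and 51.1%. The S phase list was mostly negative on pairs 1, 4 and 5. The mitotic list was mostly positive on pairs 1 and 5 and mostly negative on pair 4. On pair 2 both lists (7 of 15 and 10 of 21) were near the share of all genes. Higher on pair 1 and lower on the other 3 were 1 S phase gene (Mcm7) and 1 mitotic gene (Ccnb2), with 16.1% of all genes. The reverse held for 1 S phase gene (Rrm2) and 3 mitotic genes (Bub1b, Ttk and Kif11), with 16.2% of all genes. Means below 0 were found for 13 of 15 S phase and 12 of 21 mitotic genes, against 52.4% of all genes. Lower on all 4 arrays were 5 of 15 S phase genes (Pcna, Mcm2, Mcm5, Tyms and Cdt1) and 0 of 21 mitotic genes, with 8.43% of all genes. Higher on all 4 arrays were 2 of 15 (Ccne1 and Ccne2) and 2 of 21 (Top2a and Aurkb), with 7.19% of all genes.

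These counts moved with the treatment of the arrays. With arrays only centred on their median, the S phase genes lower on all 4 arrays numbered 1 and those higher numbered 0. Over all 14702 genes, 997 were then lower and 252 higher on all 4, in place of 1238 and 1056. Under that centring the 1.6-fold rule took 45 genes higher and 293 lower over all genes, in place of 112 and 105, and Mcm7 was past it in the lower direction. With the scanner's processed signals the S phase genes lower on all 4 arrays numbered 3, beside 1259 of all genes. Over pairs 2, 4 and 5 alone, 6 S phase and 1 mitotic gene were lower on each, and 3 and 5 were higher on each, with 24.5% of all genes lower and 23.4% higher. The limma 95% intervals of the 36 genes reached down to a log2 ratio of -1.04 and up to 0.73, so 2.05-fold lower to 1.66-fold higher levels in single genes lie inside what these arrays allow. In 24 of the 36 genes the SD over arrays exceeded the size of the mean.

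Each array sets 1 knockout sample against 1 wild-type sample, and list levels were also read in the separate channels. Within 1 dye the knockout and wild-type samples come from different arrays, so group and array cannot be told apart there. Within the Cy3 channel, the median S phase gene was -0.22 and 0.00014 in the knockout samples of pairs 1 and 2 and 0.20 and 0.15 in the wild-type samples of pairs 4 and 5, as log2 deviation from the gene's mean in that dye. Both wild-type samples were above both knockout samples. The same order held, with smaller values, for the median over all genes in Cy3 (knockout -0.02 and -0.0074, wild type 0.01 and 0.0038). Within Cy5 the wild-type samples of pairs 1 and 2 were at -0.03 and 0.12 and the knockout samples of pairs 4 and 5 at 0.0027 and 0.03, so the groups overlapped. For mitotic genes the 2 extremes were both knockout samples in Cy5, at -0.29 on pair 4 and 0.28 on pair 5. Their 2 wild-type partners in Cy3 were at -0.01 and 0.04. A difference between the knockout samples of pairs 4 and 5 and one between their arrays cannot be told apart in these values.

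Further genes of the same pathways, listed by name, showed no call either (limma, 0 at an adjusted p under 0.05 in each list). Of 47 other replication genes 46 were measured, with a median mean log2 ratio of -0.08, with 4 lower and 0 higher at an unadjusted p under 0.05 (4.26% and 3.86% of all genes). The 3 with the smallest p were the clamp loader subunit Rfc4, with -0.31, -0.59, -0.80 and -0.60 (mean -0.57 ± 0.203), and the polymerase subunits Pola1, with -0.58, -0.51, -0.57 and -0.24 (mean -0.47 ± 0.157), and Pold1, with -0.31, -0.59, -0.55 and -0.33 (mean -0.45 ± 0.146). All 3 were lower on every array, as were Pcna, which Rfc4 helps to load, and Mcm2, and each had a limma adjusted p of 0.593. On all 4 arrays 5 of the 46 were lower and 4 higher, where 8.43% and 7.19% of all genes were.

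Of 57 other mitosis genes 54 were measured, with a median of 0.02, 0 at an unadjusted p under 0.05, and 0 lower and 1 higher on all 4 arrays, for which the shares over all genes were 8.43% and 7.19%. By smallest p these were led by the spindle protein Ckap2 (mean 0.25 ± 0.251), securin (Pttg1, -0.38 ± 0.407) and the condensin subunit Ncapd2 (0.21 ± 0.185). Pttg1 was higher on pair 1 (0.16) and lower on the others (-0.71, -0.68 and -0.30). Of 35 genes of G1 control 32 were measured, with a median of 0.08, with 2 lower and 5 higher on all 4 arrays, against the same shares. E2f3, an activating E2F factor, was past the submitters' rule with 0.07, 0.90, 0.81 and 0.24 (mean 0.50 ± 0.412). It was not past the rule with processed signals, with median centring, with the mean of its probes (mean 0.24), without pair 2 (0.30) or without pair 4 (0.36). E2f2 had -1.05, -0.35, -0.13 and -0.25 (mean -0.44 ± 0.413), Foxm1, an activator of mitotic genes, had a mean of 0.31 ± 0.183, and E2f5 one of 0.23 ± 0.0560, each with the same sign on all 4 arrays. Without pair 1 the rule also took Rpa3, Timeless and Tipin among replication genes and Cks1b among mitosis genes, each lower on pairs 2, 4 and 5 and higher on pair 1. It then took 388 genes higher and 495 lower of all 14702, so these counts are near the background.

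**Figure D3:**
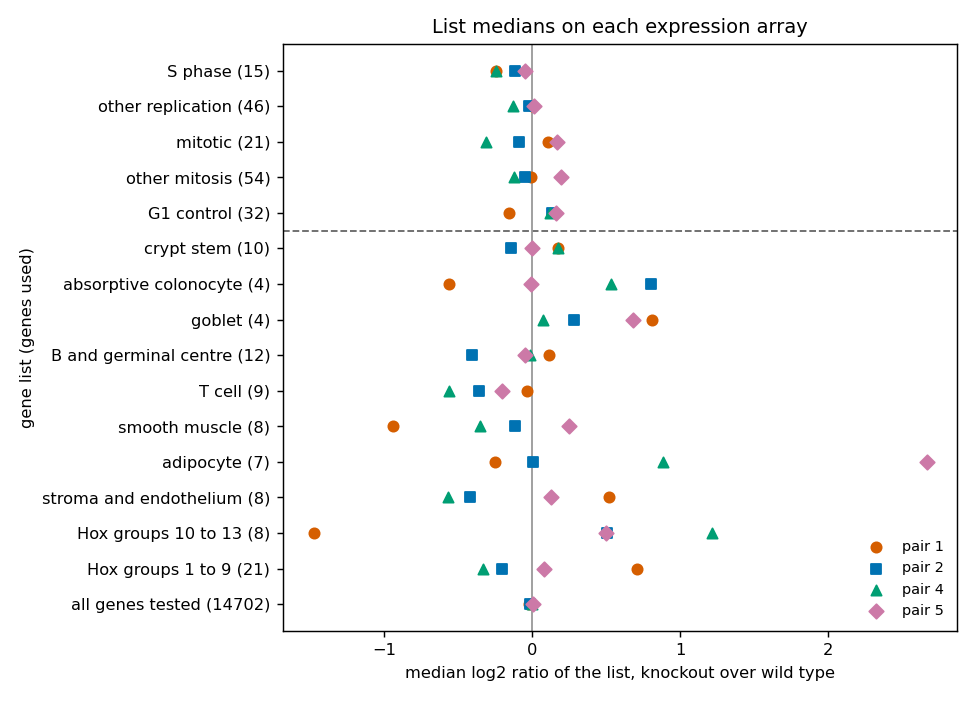
Median log2 ratio, knockout over wild type, of each gene list on the 4 arrays (1 point per pair), for the members, the 3 further cell cycle lists and the cell type markers saturated on no array. S phase medians lie between -0.24 and -0.05, while marker lists such as stroma and endothelium run from -0.57 to 0.52.

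Markers of several cell types in the mucosa differed between pairs by more than the cell cycle lists did. The median log2 ratio was 0.17, -0.14, 0.17 and -0.0048 for 10 crypt stem cell markers, and -0.56, 0.80, 0.53 and -0.0069 for 4 absorptive colonocyte markers. It was 0.80, 0.28, 0.07 and 0.68 for 4 goblet cell markers. In each of these last 2 lists 5 of the 9 measured markers were saturated on at least 1 array and were left out, a choice made after seeing the data, since a saturated probe gives only a bound. Muc2, the defining goblet cell gene, had no value. For 12 B and germinal centre cell markers it was 0.11, -0.40, -0.02 and -0.05, and for 9 T cell markers -0.03, -0.36, -0.57 and -0.21. Smooth muscle markers had -0.94, -0.12, -0.36 and 0.25, fat cell markers -0.25, 0.0040, 0.88 and 2.66, and stromal and endothelial markers 0.52, -0.42, -0.57 and 0.13. Hox genes, which mark position along the gut, had medians of -1.48, 0.50, 1.21 and 0.50 for groups 10 to 13 and 0.71, -0.21, -0.33 and 0.08 for groups 1 to 9. The summed signal of the stem cell markers ran from 26098 to 32238 in knockout and from 26203 to 30409 in wild-type samples, and none of the measured markers in any list was below background on all arrays. The mitotic medians were positive on pairs 1 and 5 and negative on pairs 2 and 4, the same signs as those of the stromal and endothelial markers and of Hox groups 1 to 9. The signs of every other marker list differed from these on at least 1 pair, those of the crypt stem cell markers on pairs 4 and 5. Lgr5, 1 of the 10 crypt stem cell markers, had 0.25, -0.26, -0.59 and -0.46. Of these 10 markers 6, 2, 7 and 5 were positive on pairs 1, 2, 4 and 5, so Lgr5 does not stand for the list. The part of cell type make-up in the members' values was not tested.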

How the data were processed

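RNA of 4 knockout and wild-type pairs was read on 2-colour Agilent arrays, with each sample's group, pair and dye from the labels. The deposited intensity values are the scanner output made with Agilent Feature Extraction (version 8.5.1.1 per the submitters' processing notes, 10.5.1.1 per the file headers, not resolved). The ratio values for Ccne2 were copied from the authors' deposited tables. From median spot signals, background was corrected with normexp (offset 50), arrays were loess-normalised with control spots at weight 0, outlier spots were dropped and spots of 1 probe averaged. A probe was used if 2 or more arrays read it well above background for the knockout, or for the wild type, and the brightest such probe stood for its gene. Log2 ratios were fitted with limma 3.58.1 (R 4.3.3), with a dye term and Benjamini-Hochberg adjustment over all 14702 genes. The fit was tested on simulated data. The number of arrays limits the precision.

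The members and all lists were chosen with earlier results of these data known, and no p is given over a list. Values on every array are printed for the members with the largest mean ratio, the smallest p or a place in the authors' tables; the rest are given in brief or where their sign differed between arrays. The methylation arrays of the series were not used here. The RefSeq promoter table is on GRCm38.p6 and the array headers name mm9, so it was joined by gene symbol alone.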

Additional observations from a re-analysis of the deposited data

Results flagged for a closer look

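Of 41 items screened over the 4 arrays, 2 had one array far from the other 3 by Dixon's test at the 95% level, and chance marks about 1 in 20. For Mcm2, pair 1 had a log2 ratio of -0.63, against -0.28, -0.26 and -0.31 on pairs 2, 4 and 5. The median of the G1 control genes was -0.16 on pair 1 and above 0 on the other 3 arrays.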

How the results depend on the processing

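The log2 change of 13 members and 10 wider-list genes kept its sign in all 253 recomputed values, and each stayed short of an adjusted p of 0.05. The values came from other background, scaling, dye, filter and probe settings and from leaving out each array. The 13 members were those with the largest absolute means, the smallest p or the same sign on all 4 arrays. The 10 others had the smallest p of their list or were past the submitters' rule. A kept sign was thus partly built into the choice. The dye and filter settings left these log2 values unchanged. Their size moved on leaving out 1 array, for example for Cdc20 from -0.59 to -0.0025 and for Pttg1 from -0.60 to -0.16. Mcm3, Rrm2, Cdc6 and Birc5, which are not among the 23, changed sign without pair 1. Of 164 recomputed list values, 143 stayed close to those reported and 21 moved. The counts of members lower or higher on every array were added after seeing the data. With processed signals, 1 member was past the rule in the higher direction, 3 S phase members were lower and 1 mitotic member higher on every array, and 0 G1 control genes were past the rule. Over all genes the rule then took 290 higher and 270 lower, and 1259 were lower and 845 higher on every array. With median centring only, 1 member was past the rule in the lower direction, the S phase median was -0.29, 1 S phase member was lower on every array, 0 S phase and 0 mitotic members were higher, and the rule took 1 replication and 0 G1 control genes. Over all genes the rule then took 45 higher and 293 lower, and 997 were lower and 252 higher on every array. With the mean of all kept probes, 1 mitotic member was higher on every array, beside 993 of all genes, and 0 G1 control genes were past the rule. Leaving out 1 array gave 0 to 2 mitotic members lower and 2 to 5 higher on every remaining array. Over all genes 1783 to 3600 were lower and 1513 to 3433 higher on every array left. The rule then took 0 to 3 other replication, 0 to 1 other mitosis and 0 to 1 G1 control genes. The S phase median ran from -0.25 to -0.15, the mitotic median from -0.11 to 0.04 and their mean difference from -0.20 to -0.06. Without pair 1 the lowest adjusted p of a member was 0.119 (limma, Mcm7), and the rule took 388 genes higher and 495 lower over all genes, against 112 and 105 with it. The causes were not tested. Beyond the limma fit, no paired analysis was possible because each ratio already sets a knockout sample against its wild-type partner on 1 array. That fit used these ratios, so it was itself paired, which leaves no replicate block to add. With 4 arrays, and an SD above the mean in 24 of 36 members, differences of the size seen here could not be told from the spread between samples.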

Other observations

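Promoter motifs of the members were also read over all genes with a RefSeq window. The median of the mean log2 ratio was -0.01 for 471 genes with E2F letters, members left out, and -0.01 for 866 genes with both CHR and CCAAT letters, members left out. Over all 11750 genes with a window it was -0.0098. Means below 0 made up 52.2%, 53.3% and 52.7% of these genes.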
